A study of Mus musculus with 12 samples.

Results

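The Toll-like receptor genes Tlr1, Tlr2, Tlr4, Tlr6, Tlr7, Tlr8, Tlr9 and Tlr13 and the LPS co-receptor genes Cd14 and Ly96 were followed by RNA-seq in mouse bone marrow monocytes. They were taken by gene symbol from the count files, 10 genes of the 54532 listed, and all 10 were among the 14324 genes with enough counts to be tested. The cells were sorted as CD11b+Ly6Chi, the surface phenotype of classical inflammatory monocytes. The 4 groups of 3 libraries were unstimulated cells and cells given LPS for 4 h, each from control mice and from mice that had received 300 mM succinate for 7 days. Succinate is a metabolite of the tricarboxylic acid cycle, and LPS is the cell wall glycolipid of Gram-negative bacteria. The design asks what LPS does to monocyte transcripts, and whether prior succinate alters resting or LPS-treated cells. All 4 groups went through the same sort. The labels do not state the strain, age or sex of the mice, the route of succinate, the LPS dose or how many animals stand behind a library. Nothing states that the replicates came from separate animals, so p-values measure the spread between these libraries, which may be technical.

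Toll-like receptors are transmembrane proteins that recognise conserved microbial molecules and signal through the adaptors MyD88 and TRIF. At the cell surface TLR4 binds LPS with its partner MD-2, the product of Ly96, after CD14 has passed LPS on to the complex, and TLR2 pairs with TLR1 or TLR6 to recognise bacterial lipopeptides. TLR7, TLR8, TLR9 and TLR13 sit in endosomes and recognise nucleic acids: TLR7 single-stranded RNA, TLR9 unmethylated CpG DNA and TLR13 bacterial ribosomal RNA, while the ligand specificity of mouse TLR8 is less settled.

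Library totals ranged from 15975882 to 18306747 counts. The first principal component of all tested genes separated cells with and without LPS and held 61.6% of the variance. The sorted phenotype was present in the RNA: Itgam, which encodes CD11b, was at 154.5 to 191.5 CPM (counts scaled to library size) in every library and Ly6c2 at 484.6 to 1632 CPM. The libraries also fell into 2 sets by the level of 5 genes (S100a4, Rpl24 and the ribosomal pseudogenes Rpl10-ps3, Gm14303 and Rpl35a-ps2), a split noticed after the data were seen. These genes were high in 5 libraries: replicates 2 and 3 of each unstimulated group and replicate 3 of the control LPS group. Most of these were unstimulated and none was an LPS library of succinate mice, so the split overlaps in part with LPS. Fold changes adjusted for the split cannot fully separate it from LPS. Adjusted LPS effects in succinate mice also lean on the difference between the sets in other groups. The origin of the split is not given in the labels, and it is named below where a receptor moved with it.

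Levels of different genes were compared per length, as TPM (counts divided by exonic length and scaled to the same sum in each library). Without LPS in control mice, Cd14 stood at 3037 ± 273 TPM (SD, n = 3) and ranked 24 among 23112 genes with a value above 0. Among the receptors Tlr2 led at 513 ± 88.0 TPM, followed by Tlr13 at 293 ± 11.6 and Tlr7 at 223 ± 19.2. Tlr4, the LPS receptor itself, was at 53.4 ± 12.1 TPM. Lower levels were found for Tlr9 (31.9 ± 9.23 TPM), Tlr6 (31.8 ± 1.60), Ly96 (14.7 ± 1.40), Tlr1 (10.2 ± 1.58) and Tlr8 (6.87 ± 1.97). Neighbours in this order had separate library ranges except Tlr9 with Tlr6 and Tlr1 with Tlr8. In unstimulated cells of succinate mice the order of the 10 genes was the same, from Cd14 at 2670 ± 409 TPM to Tlr8 at 6.58 ± 3.10 TPM. In that group Tlr13 overlapped with Tlr7, Tlr9 with Tlr6, Ly96 with Tlr1, and Tlr1 with Tlr8.

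**Figure D1:**
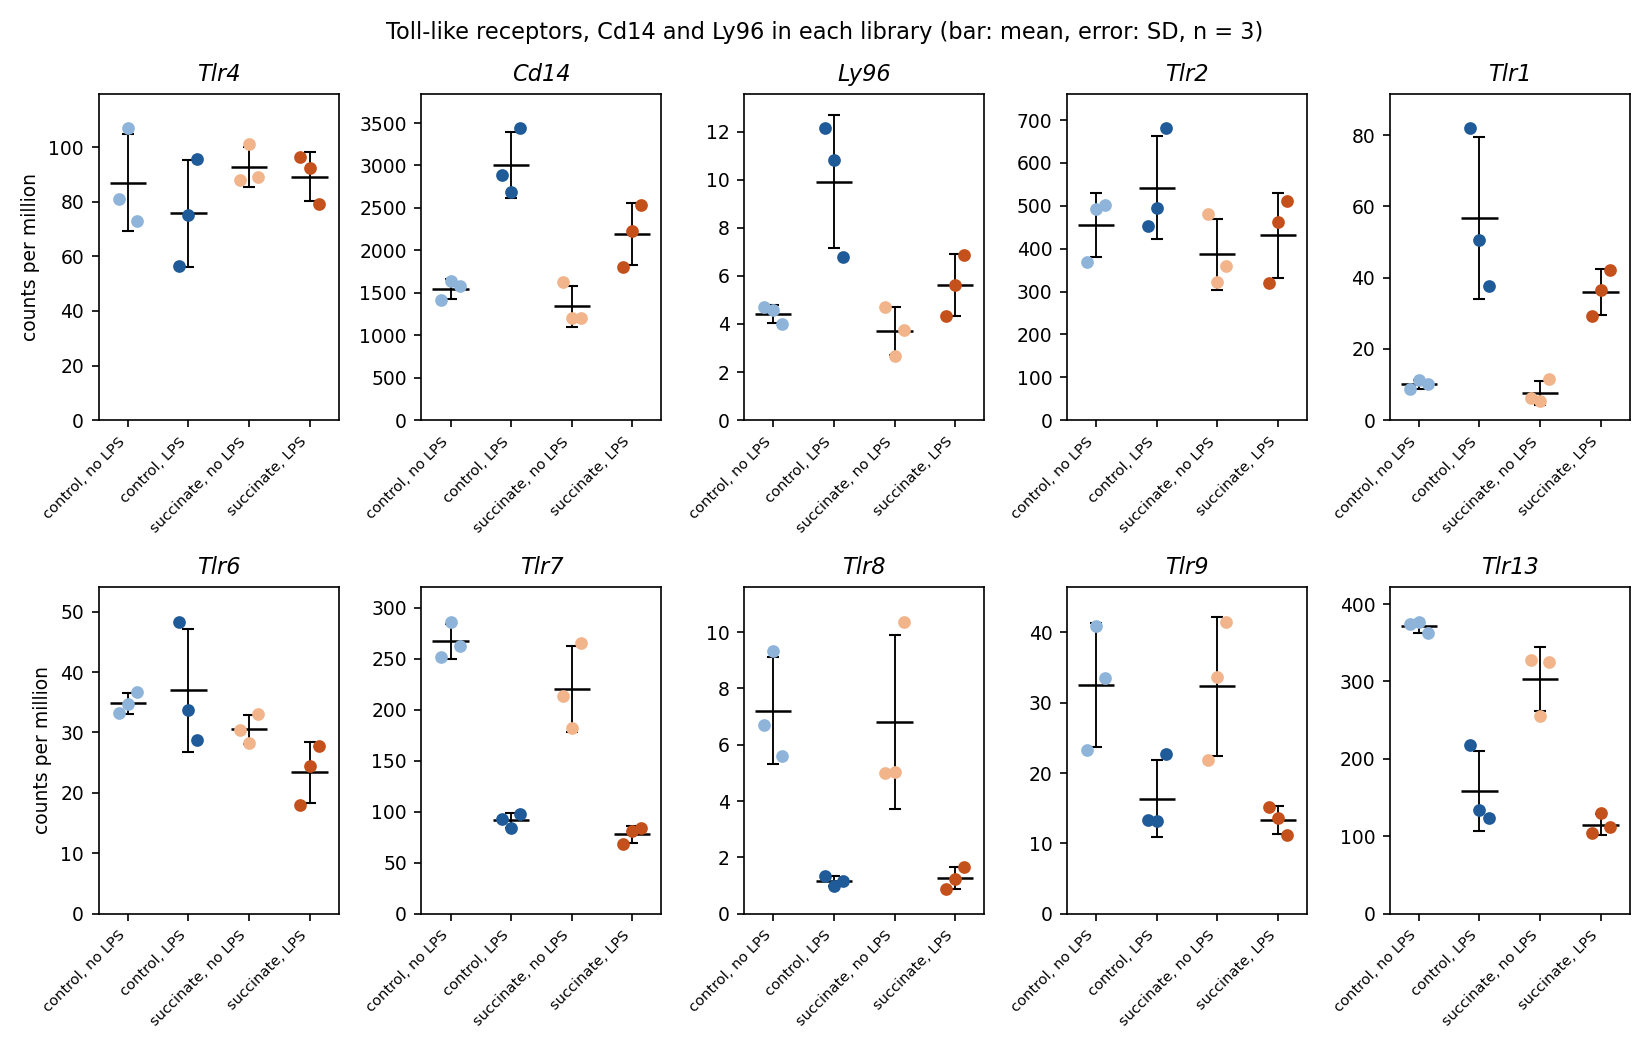
CPM (vertical axes, from 0) of each gene in every library of the 4 groups; points are libraries, horizontal bars means and error bars SD (n = 3). Tlr7, Tlr8, Tlr9 and Tlr13 are lower in every LPS library than in every unstimulated library of the same mice, and Tlr1 and Cd14 are higher. Over all tested genes 23.2% were lower and 22.3% higher in this way in control mice, and 21.5% and 19.9% in succinate mice.

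LPS changed 7 of the 10 genes in control mice, raising Tlr1, Cd14 and Ly96 and lowering Tlr7, Tlr8, Tlr9 and Tlr13. Of all 14324 tested genes 30.1% were called in this comparison, 15.3% higher and 14.8% lower, at a Benjamini-Hochberg adjusted p below 0.05 in edgeR's quasi-likelihood test. In succinate mice 6 genes were called, Tlr1 and Cd14 higher and the same 4 endosomal receptors lower, against 30.2% of all genes (14.1% higher and 16.2% lower). The 2 comparisons share no library, and the 6 genes called in both moved the same way. The median log2 fold change over the 10 genes was -0.06 in control and -0.22 in succinate mice, beside 0.00 and -0.02 over all tested genes. Since these are bulk samples, fewer cells of a type and less RNA per cell cannot be told apart.

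**Figure D2:**
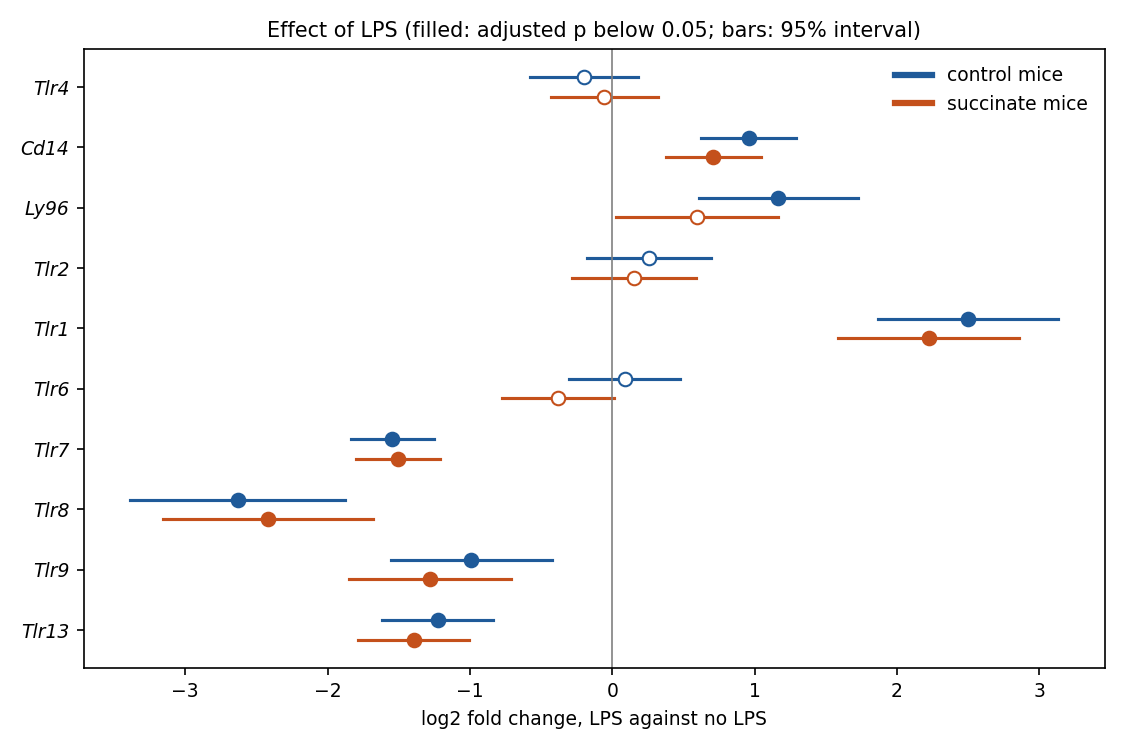
Log2 fold change of each gene with LPS against no LPS (horizontal axis) in control mice (blue) and succinate mice (orange), with 95% intervals; filled points passed an adjusted p of 0.05. Tlr1 lies farthest to the right and Tlr8 farthest to the left in both, and Ly96 is filled in control mice alone.

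Among the genes of the LPS receptor complex, Cd14 and, in control mice, Ly96 rose while the values of Tlr4 itself overlapped. Tlr4 (chromosome 4, 66827584 to 66930284, GRCm38) was at 81.2, 107 and 72.9 CPM in unstimulated and 56.5, 75.4 and 95.6 CPM in LPS-treated cells of control mice. Its values in succinate mice were 88.2, 101 and 89.0 CPM without and 96.4, 92.3 and 79.0 CPM with LPS. The groups overlapped in both comparisons. The log2 fold changes were -0.20 ± 0.18 (SE, adjusted p = 0.443) and -0.06 ± 0.18 (adjusted p = 0.845), with 95% intervals of -0.58 to 0.18 and -0.43 to 0.32.

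Cd14, the co-receptor that delivers LPS, was at 1417, 1639 and 1581 CPM in unstimulated control cells and at 2892, 2685 and 3436 CPM with LPS. In succinate mice the values were 1622, 1201 and 1199 CPM without and 1803, 2234 and 2536 CPM with LPS. Every LPS library lay above every unstimulated library of the same mice, as for 22.3% of all genes in control and 19.9% in succinate mice. The increase was 1.94-fold in control mice (log2 0.96 ± 0.16, adjusted p = 0.000238) and 1.63-fold in succinate mice (0.71 ± 0.16, adjusted p = 0.00282). With LPS, Cd14 reached rank 14 among all genes by TPM in both kinds of mice.

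Ly96 (chromosome 1, 16688051 to 16709611), which encodes the LPS-binding subunit MD-2, had few counts, 46 to 199 per library. It was at 4.69, 4.57 and 3.99 CPM in unstimulated and 12.1, 10.8 and 6.80 CPM in LPS-treated control cells. Ly96 rose 2.25-fold (log2 1.17 ± 0.26, adjusted p = 0.00317), and its LPS libraries lay above the unstimulated ones without overlap, as for 22.3% of all genes. In succinate mice it was at 4.70, 2.69 and 3.76 CPM without and 4.34, 5.64 and 6.89 CPM with LPS. These groups overlapped, and the log2 fold change of 0.60 ± 0.27 was not called (adjusted p = 0.107). Within each group that held both sets of libraries, Ly96 was lower in those with high S100a4 and ribosomal pseudogene counts. With that split as a covariate, chosen after the data were seen, the log2 fold changes were 0.97 (adjusted p = 0.00558) in control and 0.29 (adjusted p = 0.455) in succinate mice. The difference between these effects, tested as the interaction, was -0.57 ± 0.37 on the log2 scale with a 95% interval of -1.36 to 0.22 (adjusted p = 1.0), so the data do not show that LPS acted differently on Ly96 in the 2 kinds of mice.

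The levels of the co-receptors relative to Tlr4 moved with these changes, though the Ly96 ratios of the succinate groups overlapped. The ratio of Ly96 to Tlr4 in TPM was 0.281 ± 0.0432 without and 0.780 ± 0.391 with LPS in control mice, with replicate 3 at 0.387 and replicate 1 at 1.17 among the LPS libraries. In succinate mice it was 0.221 ± 0.0732 and 0.350 ± 0.116, with ranges of 0.144 to 0.290 and 0.245 to 0.474. The ratio of Cd14 to Tlr4 was 58.2 ± 10.4 without and 131 ± 28.6 with LPS in control mice and 46.8 ± 10.9 and 80.2 ± 21.6 in succinate mice. The Cd14 ratios of the control groups did not overlap (49.2 to 69.6 against 114 to 164), and those of the succinate groups ran from 38.1 to 59.0 and from 60.0 to 103.

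Of the lipopeptide receptors, Tlr1 rose with LPS, while Tlr2, which pairs with it, and Tlr6, the alternative partner, were not called. Tlr1 and Tlr6 are neighbours on chromosome 5 (64924679 to 64933563 and 64952031 to 64960097, both on the minus strand) and near-identical in part, so the way reads were assigned can matter for them. Their coding sequences, 2385 and 2418 bases long in GENCODE M21, share an identical run of 229 bases, at chr5:64925537-64925765 in Tlr1 and chr5:64953828-64954056 in Tlr6, minus strand. The sequences over the 5′ edge of the run are shown because reads here are told apart by single bases. The capital marks the last base that differs, and the last 30 bases of each line are the start of the identical run.
Tlr1: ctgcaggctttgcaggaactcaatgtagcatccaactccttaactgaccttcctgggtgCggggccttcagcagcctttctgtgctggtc
Tlr6: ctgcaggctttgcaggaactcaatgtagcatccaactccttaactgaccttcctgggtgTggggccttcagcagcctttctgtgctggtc
In the 60 bases before the run they differ at 1 base and in the 60 bases after it at 2. Of the 100-base windows of the reference transcripts 7.89% of those of Tlr1 and 7.09% of those of Tlr6 occur in the other gene, and at 150 bases 4.30% and 3.86%. Neither the read length nor the counting rule is stated in the labels, so the counts of both genes are uncertain to the extent that reads fell in these windows. No 100-base window of any other member occurs in a transcript of another gene, and no exon of a member overlaps another gene. At 50 bases more was shared: 15.4% of the windows of Tlr1 occur in 307 other genes, Tlr6 among them. For Tlr6 it was 12.3%, in 2 other genes, and for Tlr4 0.216%, in 2 other genes. The remaining members shared no 50-base window.

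Tlr1 was at 8.62, 11.4 and 10.1 CPM in unstimulated and 81.9, 50.7 and 37.6 CPM in LPS-treated control cells. The succinate mice gave 6.23, 5.37 and 11.5 CPM without and 29.3, 36.5 and 42.1 CPM with LPS. Every LPS library exceeded every unstimulated one of the same mice, as held for 22.3% of all genes in control and 19.9% in succinate mice, and replicate 1 of the control LPS group was the highest of the 12 libraries. The rise was 5.66-fold in control mice (log2 2.50 ± 0.30, adjusted p = 1.16e-05) and 4.67-fold in succinate mice (2.22 ± 0.30, adjusted p = 4.05e-05).

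Tlr6 was not called in either LPS comparison. Its values were 33.1, 34.7 and 36.6 CPM without and 48.3, 33.8 and 28.8 CPM with LPS in control mice, and 30.4, 28.2 and 33.0 CPM without and 17.9, 24.5 and 27.8 CPM with LPS in succinate mice. Replicate 1 of the control LPS group was again the highest library. The control groups overlapped (log2 fold change 0.09 ± 0.18, adjusted p = 0.774). In succinate mice the LPS libraries lay below the unstimulated ones, but the log2 fold change of -0.38 ± 0.18 was not called (adjusted p = 0.137). The interaction was -0.47 ± 0.26 (adjusted p = 1.0). The ratio of Tlr1 to Tlr6 in TPM accordingly went from 0.321 ± 0.0393 to 1.67 ± 0.218 in control mice and from 0.276 ± 0.0971 to 1.72 ± 0.0865 in succinate mice.

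Tlr2 (chromosome 3, 83836272 to 83841767), the subunit common to both lipopeptide receptors, was at 369, 492 and 502.5 CPM without and 454, 494 and 680.5 CPM with LPS in control mice. Values in succinate mice were 481, 323 and 359 CPM without and 319.5, 462 and 512 CPM with LPS. The groups overlapped in both kinds of mice, with log2 fold changes of 0.26 ± 0.20 (adjusted p = 0.39) and 0.15 ± 0.20 (adjusted p = 0.617). Tlr2 remained the most abundant receptor transcript in each of the 4 groups.

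All 4 endosomal receptors fell with LPS in both kinds of mice, and in each case the LPS libraries lay below the unstimulated libraries of the same mice. Over all genes, 23.2% had lower LPS libraries without overlap in control and 21.5% in succinate mice. Tlr7 (X chromosome, 167304929 to 167330558), a receptor for single-stranded RNA, was at 252, 286 and 263 CPM without and 92.99, 83.7 and 97.9 CPM with LPS in control mice. In succinate mice it was at 213, 182 and 266 CPM without and 68.1, 81.1 and 83.7 CPM with LPS. The decrease was 2.92-fold (log2 -1.54 ± 0.14, adjusted p = 6.87e-07) and 2.84-fold (-1.50 ± 0.14, adjusted p = 9.67e-07), the smallest standard errors of the 10 genes.

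Tlr8, next to Tlr7 on the X chromosome (167242696 to 167264329), had the largest fold decrease of the 10 genes in both comparisons. Its mean TPM was the lowest of the 10 in each group, though by CPM it stood above Ly96 without LPS. It was at 6.71, 9.32 and 5.62 CPM without and 1.34, 0.974 and 1.15 CPM with LPS in control mice. In succinate mice the values were 4.99, 5.02 and 10.4 CPM and 0.889, 1.24 and 1.67 CPM. The LPS libraries rest on 15 to 31 counts each and the unstimulated ones on 85 to 182. Tlr8 fell 6.20-fold in control mice (log2 -2.63 ± 0.35, adjusted p = 3.87e-05) and 5.35-fold in succinate mice (-2.42 ± 0.34, adjusted p = 7.12e-05).

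Tlr9 (chromosome 9, 106222598 to 106226883), the receptor for CpG DNA, was at 23.3, 40.9 and 33.5 CPM without and 13.3, 13.1 and 22.7 CPM with LPS in control mice. The succinate mice had 21.9, 33.6 and 41.5 CPM without and 15.1, 13.6 and 11.1 CPM with LPS. The groups came within 1 CPM of each other in control mice, and Tlr9 fell 1.99-fold (log2 -0.99 ± 0.27, adjusted p = 0.0103). In succinate mice it fell 2.44-fold (-1.28 ± 0.27, adjusted p = 0.00186). Within each group that held both sets of libraries, Tlr9 was higher in those with high S100a4 and ribosomal pseudogene counts. With the split as a covariate the log2 fold changes were -0.76 (adjusted p = 0.000936) and -0.74 (adjusted p = 0.00288), so the value in succinate mice moved by more than 1.5 times. The call in control mice was lost when 1 library was left out: adjusted p = 0.0679 without unstimulated replicate 2, 0.0596 without LPS replicate 1 and 0.0606 without LPS replicate 2.

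Tlr13 (X chromosome, 106143204 to 106160493), which recognises bacterial ribosomal RNA in mice, was at 374.5, 377 and 362 CPM without and 218, 133 and 124 CPM with LPS in control mice. The values in succinate mice were 328, 255 and 325 CPM without and 104, 130.0 and 112 CPM with LPS. Replicate 1 stood above the other control LPS libraries here as for Tlr1, Tlr6 and Ly96. The decrease was 2.34-fold (log2 -1.23 ± 0.18, adjusted p = 9.93e-05) and 2.63-fold (-1.40 ± 0.18, adjusted p = 3.3e-05).

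Because Tlr8, Tlr9 and Tlr13 fell together, the RefSeq promoter sequences (GRCm38.p6) up to the annotated gene start are shown for them, with that of Tlr1, which moved the other way. The promoter table held 6 of the 10 genes, and Tlr7, which also fell, was not among them. Capitals mark matches, on either strand, to GAGGAA, the core recognised by the myeloid factor PU.1, and to GAAANNGAA, an interferon response element-like pattern. The positions are chrX:167264330-167264579 minus strand for Tlr8, chr9:106222348-106222597 plus strand for Tlr9, chrX:106143025-106143203 plus strand for Tlr13 and chr5:64933564-64933808 minus strand for Tlr1.
Tlr8: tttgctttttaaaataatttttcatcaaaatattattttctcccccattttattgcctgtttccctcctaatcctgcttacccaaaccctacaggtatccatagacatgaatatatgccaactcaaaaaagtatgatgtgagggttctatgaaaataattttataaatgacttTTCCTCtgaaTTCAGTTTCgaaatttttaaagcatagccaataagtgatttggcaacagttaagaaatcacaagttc
Tlr9: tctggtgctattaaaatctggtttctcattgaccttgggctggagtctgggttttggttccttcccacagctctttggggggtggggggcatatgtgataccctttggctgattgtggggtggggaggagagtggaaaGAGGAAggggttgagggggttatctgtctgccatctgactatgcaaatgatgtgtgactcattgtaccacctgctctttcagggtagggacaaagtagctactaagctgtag
Tlr13: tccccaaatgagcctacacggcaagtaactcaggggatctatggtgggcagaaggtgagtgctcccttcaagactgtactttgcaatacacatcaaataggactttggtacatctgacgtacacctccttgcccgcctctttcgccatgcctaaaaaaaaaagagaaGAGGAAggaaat
Tlr1: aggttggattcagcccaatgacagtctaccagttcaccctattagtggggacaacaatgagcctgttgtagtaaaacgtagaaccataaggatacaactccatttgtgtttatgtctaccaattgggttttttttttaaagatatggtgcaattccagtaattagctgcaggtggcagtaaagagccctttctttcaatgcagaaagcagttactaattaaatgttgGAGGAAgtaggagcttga
GAGGAA occurred in these 4 of the members' 8 windows and in 28.3% of all 32851 promoter windows of 300 bases. Tlr2 and Tlr6, the other members in the promoter table, had no GAGGAA, nor did the Tlr1 window inside the gene. Where present, GAGGAA was thus found in the printed promoters alone. GAGGAA lay at -77 in Tlr8, -112 in Tlr9, -83 in Tlr13 and -23 in Tlr1, counted from the RefSeq start, and again at 13 in Tlr9, past the printed bases. GAAANNGAA occurred in Tlr8, in a window of Tlr6 that lies inside the gene, and in 8.56% of all windows, and TGANTCA, the AP-1 element, in Tlr9 and in 7.81%. GGANTTTCC, 1 of the NF-kB like patterns searched, occurred in none of the members' windows and in 1.25% of all, and GGGNNTTCC in Tlr2 and in 5.82%. CACGTG and ACGTG occurred, overlapping each other, in a second window of Tlr1 that lies inside the gene. These matches describe letters in a window and were not related to the measured changes.

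Seen as shares of the summed TPM of the 8 receptors, the makeup of the receptor transcripts shifted from endosomal to surface receptors. The sum itself was 1164 ± 126 TPM without and 870 ± 90.1 TPM with LPS in control mice. In succinate mice it was 1006 ± 114 and 737 ± 108 TPM. A share can therefore rise without a rise in level, as for Tlr2, which was not called. Tlr3 and Tlr5 are not among the 8. The 4 endosomal receptors made up 51.4%, 46.8% and 45.3% in the unstimulated libraries of control mice and 28.2%, 21.6% and 18.5% in the LPS libraries. In succinate mice they made up 42.4%, 46.1% and 51.4% without and 24.9%, 22.5% and 19.7% with LPS. The ranges with and without LPS were far apart in both kinds of mice, and those of control and succinate mice overlapped. Tlr2 went from 43.9 ± 3.67% to 62.8 ± 7.85% of the total in control and from 43.9 ± 5.23% to 62.8 ± 4.36% in succinate mice. Tlr1 went from 0.875 ± 0.0435% to 6.09 ± 2.70% and from 0.785 ± 0.304% to 4.76 ± 0.224%. With LPS the order by TPM in control mice became Cd14, Tlr2, Tlr13, Tlr7, Tlr1, Tlr4, Tlr6, Ly96, Tlr9 and Tlr8, in which the ranges of Tlr7 to Ly96 each overlapped with the next. In succinate mice Tlr4 (52.6 ± 6.41 TPM) stood before Tlr1 (35.1 ± 5.47), with separate ranges.

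**Figure D3:**
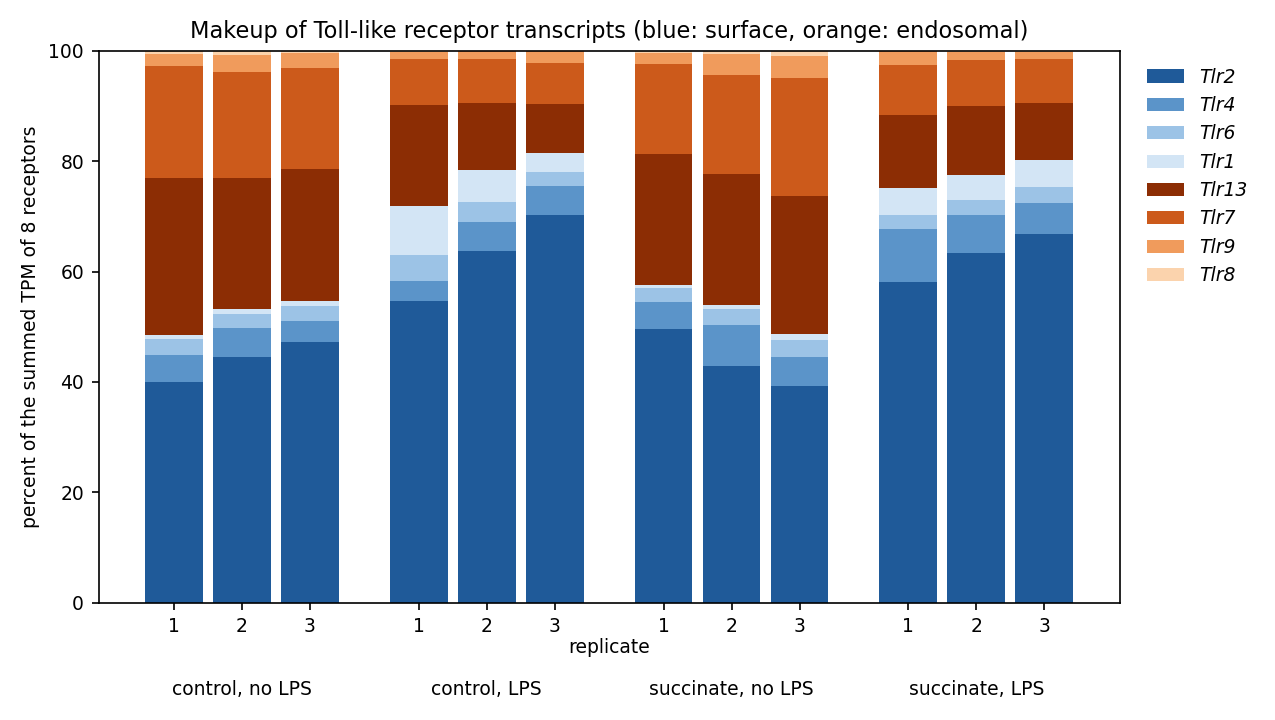
Percent of the summed TPM of the 8 Toll-like receptors (vertical axis, 0 to 100) held by each receptor in every library, surface receptors in blue and endosomal receptors in orange. The orange part covers 42.4 to 51.4% of the unstimulated and 18.5 to 28.2% of the LPS libraries.

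Markers of the sorted cells and of other cells were followed in the same libraries. Of 10 markers of Ly6C-high monocytes, 2 rose and 6 fell with LPS in control mice and 2 rose and 5 fell in succinate mice. Over all genes 15.3% rose and 14.8% fell in control mice, and 14.1% and 16.2% in succinate mice. These shares stand beside every marker count given here and below. Their sum was 9491 to 9747 CPM without and 6356 to 6864 CPM with LPS in control mice, and 6392 to 9019 and 4928 to 6656 CPM in succinate mice. Ly6c2 rose (log2 1.06 ± 0.16 and 1.16 ± 0.16), and the coagulation factor gene F13a1 (-1.77 ± 0.23 and -1.88 ± 0.23) and the chemokine receptor gene Ccr2 (-1.24 ± 0.31 and -1.34 ± 0.31) fell. The sum of 8 macrophage markers was 222.5 to 257 CPM without and 794.5 to 939 CPM with LPS in control mice, and 155 to 218 and 742 to 877 CPM in succinate mice. Nearly all of that difference was Vcam1, an adhesion molecule gene (105 to 134 against 634 to 833 CPM in control mice), 1 of 4 tested markers that rose, while Siglec1 fell in both kinds of mice and C1qa was at most 0.507 CPM in any library. Of 8 tested conventional dendritic cell markers 5 rose in control and 3 in succinate mice and none fell, with sums of 35.2 to 50.4 and 59.5 to 73.1 CPM in control mice and 34.8 to 46.8 and 40.7 to 56.8 CPM in succinate mice.

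The summed level of 10 plasmacytoid dendritic cell markers, a cell type rich in Tlr7 and Tlr9, was 197 to 238 CPM without and 131 to 167 CPM with LPS in control mice, and 180 to 270 and 109 to 156 CPM in succinate mice. All 10 had a count in each group. Of 9 tested, 3 rose and 3 fell in control mice and 2 rose and 3 fell in succinate mice, with medians of 0.52 and 0.47 on the log2 scale. Irf8, Runx2 and Pacsin1 fell in both. Bst2, Ccr9 and Tcf4 rose in control mice (log2 0.75 ± 0.22, 0.97 ± 0.25 and 0.63 ± 0.15), and Ly6d (1.65 ± 0.39) and the defining marker Siglech (1.59 ± 0.51, adjusted p = 0.0272) rose in succinate mice. Siglech was at 0.350 to 3.34 CPM and Klk1, too low to be tested, at 0 to 0.235 CPM in the 12 libraries. The 10 B cell markers summed to 127 to 154 CPM without and 74.9 to 133 CPM with LPS in control mice. In succinate mice the sums were 171 to 231 and 128 to 150 CPM. Of the 8 tested, 1 (Ighm) fell in both, a share near that of all genes, and none rose. The sum of 13 neutrophil markers was 10160 to 15620 CPM without and 15880 to 21060 CPM with LPS in control mice and 8919 to 12040 and 17540 to 19900 CPM in succinate mice. Its most abundant genes were S100a8 and S100a9, which monocytes also express, and the neutrophil granule gene Ngp, which went from a mean of 3248 to 5140 CPM in control and from 2716 to 4694 CPM in succinate mice. Of these 13 genes 5 rose and 2 fell in control and 4 rose and 2 fell in succinate mice, with medians of 0.09 and 0.42. The 2 that fell are a share near that of all genes. Cxcr2 (-1.35 ± 0.18 and -1.04 ± 0.18) and Mmp8 (-1.44 ± 0.17 and -1.31 ± 0.17) fell, and Ly6g, the defining neutrophil marker, was at 2.06 to 8.33 CPM and rose in control mice (log2 0.99 ± 0.32, adjusted p = 0.0281). The part of these cells in the receptor values was not tested.

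The Toll-like receptors outside the 10 genes were barely detected. Tlr5, the flagellin receptor, had 66 counts over the 3 unstimulated and 6 over the 3 LPS libraries of control mice, and 74 and 6 in succinate mice. It fell in both (log2 -3.31 ± 0.82, adjusted p = 0.00616, and -3.63 ± 0.81, adjusted p = 0.00305). Tlr3, which recognises double-stranded RNA, had 12 to 32 counts per group and was not called in either LPS comparison. Tlr11 and Tlr12, which recognise profilin, had at most 2 and 6 counts in a group and were not tested.

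Genes listed for the folding, trafficking and processing of Toll-like receptors fell more often than they rose. The list was not limited to the endosomal receptors, and what each fall means for a receptor was not tested. Of 18 listed and tested, 2 rose and 9 fell with LPS in control mice and 2 rose and 10 fell in succinate mice, with medians of -0.38 and -0.34 on the log2 scale, beside 14.8% and 16.2% of all genes called lower. The same 2 rose and the same 9 fell in both. Rab7b, a small GTPase of the endosomal system, went from 220 ± 9.99 to 30.4 ± 10.2 CPM (SD, n = 3) in control mice and fell by 2.86 ± 0.27 on the log2 scale (adjusted p = 1.17e-06). The proteases that cleave endosomal receptors into their active form fell with it: cathepsin K (Ctsk) by 2.12 ± 0.22, legumain (Lgmn) by 1.96 ± 0.24 and cathepsin L (Ctsl) by 1.60 ± 0.13. Cnpy3, a chaperone of several Toll-like receptors, was at 95.5 to 102 CPM without and 44.1 to 47.6 CPM with LPS and fell by 1.08 ± 0.13 (adjusted p = 1.32e-05). Unc93b1, the transporter that escorts endosomal receptors, was at 242 to 314 CPM without and 208 to 246 CPM with LPS and was not called (log2 -0.35 ± 0.17, adjusted p = 0.135). The lysosomal peptide and histidine transporter Slc15a3 rose by 1.87 ± 0.19 in control and 1.61 ± 0.18 in succinate mice, and Rab11a by 0.37 ± 0.10 and 0.39 ± 0.10.

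Of 14 tested genes for LPS binding and accessory proteins, 4 rose and 5 fell in control mice and 5 rose and 6 fell in succinate mice, beside 15.3% and 14.8%, and 14.1% and 16.2%, of all genes. Cd36, a scavenger receptor that assists TLR2 with TLR6, went from 135 ± 28.8 to 14.1 ± 3.85 CPM (SD, n = 3) in control mice (log2 -3.26 ± 0.25, adjusted p = 1.45e-07) and fell by 3.66 ± 0.26 in succinate mice. Casp4, the cytosolic sensor of LPS, went from 25.7 to 29.0 CPM up to 170 to 199 CPM (2.70 ± 0.18, adjusted p = 3.63e-08). Lbp, which carries LPS to CD14, was not called in control mice (0.22 ± 0.15, adjusted p = 0.299) and rose in succinate mice (0.52 ± 0.15, adjusted p = 0.0148), a difference that is not shown to separate the 2 kinds of mice, since no interaction was called over all genes. Cd180, a TLR4-related receptor, was at 154 to 166 CPM without and 98.1 to 131 CPM with LPS in control mice without being called (-0.51 ± 0.19, adjusted p = 0.0564), and fell in succinate mice (-0.96 ± 0.19, adjusted p = 0.00156). Ly86, its MD-2-like partner, fell in both (-0.73 ± 0.25, adjusted p = 0.0419, and -0.98 ± 0.26, adjusted p = 0.00914).

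Downstream of the receptors, 10 of 22 adaptor and proximal kinase genes rose and 3 fell in control mice, beside 15.3% and 14.8% of all genes. In succinate mice 5 rose and 2 fell, a share near that of all genes (14.1% and 16.2%). Myd88, the adaptor of these receptors, was at 92.7 to 95.3 CPM without and 164.5 to 221 CPM with LPS and rose by 0.99 ± 0.12 and 0.85 ± 0.12 in the 2 kinds of mice. The largest rises were those of Ikbke (3.11 ± 0.11 and 2.96 ± 0.11), a kinase that activates interferon regulatory factors, and Irak3 (2.66 ± 0.16 and 2.75 ± 0.16), an inhibitor of the MyD88 complex. Tirap, the bridging adaptor, rose in control mice (0.38 ± 0.12, adjusted p = 0.0222) and was not called in succinate mice (0.24 ± 0.12, adjusted p = 0.145). Ticam1, which encodes TRIF, was not called in either (0.05 ± 0.10, adjusted p = 0.782, and -0.29 ± 0.10, adjusted p = 0.0509).

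Of 18 genes that restrain the pathway, 8 rose and 3 fell in each kind of mice, and 8 and 2 were shared. Of all genes 15.3% rose and 14.8% fell in control mice and 14.1% and 16.2% in succinate mice. Tnfaip3, which encodes the deubiquitinase A20, went from 92.4 to 103.5 CPM up to 1352 to 1399 CPM in control mice (3.82 ± 0.19, adjusted p = 2.76e-09) and rose by 3.54 ± 0.19 in succinate mice. Inpp5d, the phosphatase SHIP-1, fell by 1.15 ± 0.10 and 1.14 ± 0.10. The 9 tested early LPS targets, of 10 listed, rose in both kinds of mice with medians of 6.38 and 6.45. Among them Tnf rose by 3.15 ± 0.19 and 3.50 ± 0.19, Il6 by 7.23 ± 0.55 and 6.60 ± 0.49 and Saa3 by 8.54 ± 0.33 and 7.75 ± 0.31. None of the genes on these lists was called in the interaction or in either comparison of succinate with control mice. The lists overlap, since Irak3, Cd180, Ly86 and Nfkbia each stand on 2 of them and are counted in both.

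**Figure D4:**
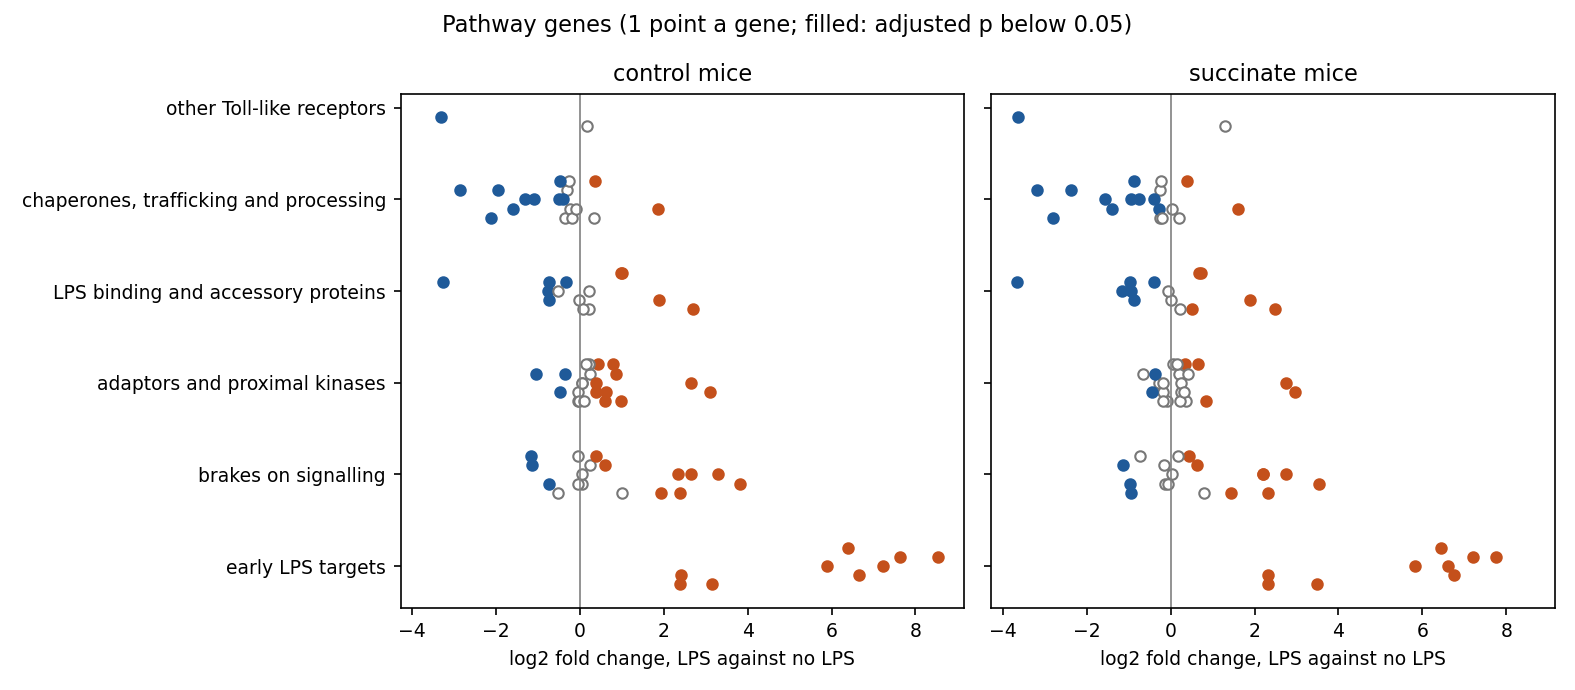
Log2 fold change with LPS against no LPS (horizontal axis) of every tested gene of the pathway lists (rows) in control mice (left) and succinate mice (right); filled points passed an adjusted p of 0.05, orange higher and blue lower. All 9 early targets are filled to the right of 0 in both panels, and 9 and 10 of the 18 trafficking and processing genes are filled to the left of 0.

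Genes with the pattern most like each member were listed by Pearson's r of log2 CPM over the 12 libraries, which mainly reflects the split into cells with and without LPS and carries no test. Tlr7 was closest to Cd93 (r = 0.996), which went from 1811 to 265 CPM in control and from 1459 to 202 CPM in succinate mice, then to Cerk and Pparg (both 0.995). Tlr8 was closest to Hip1 (0.99) and Krt80 (0.985), Tlr13 to Osbpl8 (0.987) and Atp2b1 (0.986), and Tlr9 to Fam120a (0.975) and Arid1b (0.968). Tlr1 was closest to Ms4a6c (0.987), which rose from 27.4 to 123 CPM in control and from 22.9 to 95.4 CPM in succinate mice, then to Snx10 (0.984) and Fyb (0.983). Cd14 was closest to Adora2b (0.985) and Rhoq (0.983), and Ly96 to Psmb6 (0.968) and Fabp3 (0.967). The genes closest to Tlr6 were Adap2 (0.963) and Pogk (0.957). Tlr2 and Tlr4, neither of which was called, had the weakest matches, B3galt6 at 0.906 and F11r at 0.896.

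For succinate given to the mice none of the 10 genes was called by this test, with or without LPS, which does not show that they were unchanged. Without LPS 0 of 10 were called in edgeR, beside 0% of all 14324 genes, and none had an unadjusted p under 0.05, beside 535 genes over all. DESeq2 and limma-voom also called 0 of the 10. The succinate mean lay below the control mean for 9 of 10, with a median log2 fold change of -0.22, beside 0.01 and 48.6% below 0 over all tested genes. With all 12 libraries the largest was that of Tlr1 at -0.38 ± 0.30 (adjusted p = 0.958), followed by Tlr13 at -0.29 ± 0.18 and Tlr7 at -0.28 ± 0.13 (adjusted p = 0.958 for both). Single libraries moved the Tlr1 value widely, to -0.79 without unstimulated succinate replicate 3 and -0.18 without replicate 2 of that group. Tlr6 and Tlr13 had all 3 succinate libraries below all 3 control libraries, as did 4.27% of all genes.

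With LPS, 0 of 10 were called in edgeR, beside 0.0628% of all genes, and 5 had an unadjusted p under 0.05, beside 1680 genes (11.7%) over all. The succinate mean was lower for 8 of 10, all but Tlr4 and Tlr8, with a median of -0.39, beside -0.01 and 52.2% below 0 over all tested genes. Those 5 were Ly96 (log2 -0.82 ± 0.26, adjusted p = 0.208), Tlr6 (-0.66 ± 0.18, adjusted p = 0.15), Tlr1 (-0.66 ± 0.27, adjusted p = 0.362), Tlr13 (-0.46 ± 0.18, adjusted p = 0.333) and Cd14 (-0.46 ± 0.16, adjusted p = 0.253). Tlr6 and Cd14 had all 3 succinate libraries below all 3 control libraries, which 10.2% of all genes also did. The intervals still allow sizeable differences: -1.37 to -0.27 for Ly96, -1.24 to -0.07 for Tlr1 and -0.14 to 0.61 for Tlr4. This comparison shares the control LPS libraries with the LPS comparison in control mice, and replicate 1 of that group was the highest for Tlr1, Tlr6, Tlr13 and Ly96. Without that library the log2 differences were -0.30 for Tlr1, -0.43 for Tlr6, -0.17 for Tlr13 and -0.66 for Ly96. These genes were picked because that library was their highest, so leaving it out had to shrink their differences. The differences of Cd14 (-0.49), Tlr2 (from -0.33 to -0.45) and Tlr9 (from -0.30 to -0.44) became larger without it. Tlr7 stayed near its value (-0.24 and -0.23), Tlr4 went from 0.24 to 0.05 and Tlr8 from 0.13 to 0.24. The result depended on the analysis: DESeq2 called Tlr6 (adjusted p = 0.0292) and limma-voom none, and without the filter on low counts edgeR called Tlr1, Tlr6, Tlr13 and Ly96 lower (adjusted p of 0.00444, 0.00358, 0.0445 and 0.0468). With the split of the libraries as a covariate in edgeR none was called. Ly96 was then at -0.95 (adjusted p = 0.0523) and Tlr6 at -0.69 (adjusted p = 0.094).

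**Figure D5:**
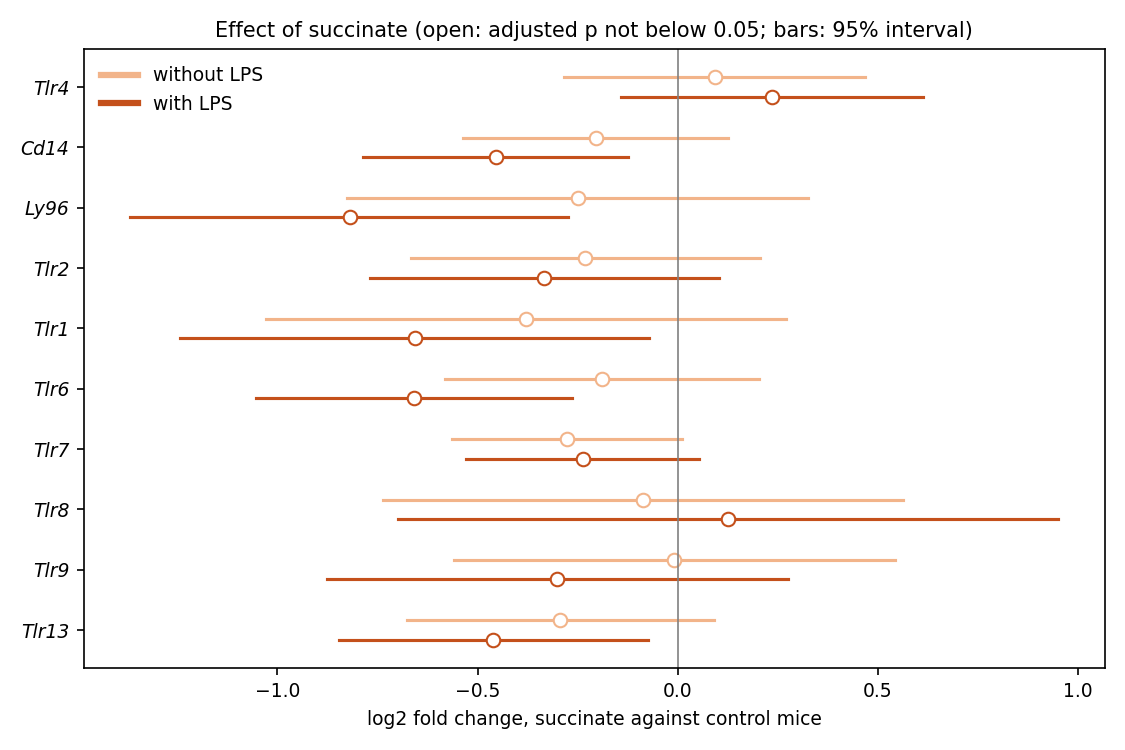
Log2 fold change of each gene in succinate against control mice (horizontal axis), without LPS (light) and with LPS (dark), with 95% intervals; all points are open, since none passed an adjusted p of 0.05. Without LPS 9 and with LPS 8 of the 10 points lie left of 0.

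The test of the difference between the LPS effects of the 2 kinds of mice called 0 of 10, beside 0% of all genes, and 0 of the 10 had an unadjusted p under 0.05, beside 560 genes over all; DESeq2 and limma-voom called 0 of the 10 as well. The interaction was below 0 for 7 of 10 genes with a median of -0.21, beside -0.03 over all tested genes. It ranged from -0.57 ± 0.37 for Ly96 and -0.47 ± 0.26 for Tlr6 to 0.21 ± 0.49 for Tlr8. Without replicate 1 of the control LPS group the Tlr6 value was -0.23, and leaving out 1 library moved that of Tlr8 between -0.04 and 0.65. For Tlr7, the most precisely measured, it was 0.04 ± 0.19 with a 95% interval of -0.37 to 0.45, and for Cd14 -0.25 ± 0.22 with an interval of -0.72 to 0.22.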

How the data were processed

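The deposited values are raw counts of reads per gene, 1 file per library. The submitters' processing notes name Trim Galore and mm10. The aligner, counter, annotation, strand handling and read length are not stated there or in the labels. Every file listed the same 54532 genes, and each library was kept as 1 sample.

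Genes were filtered with filterByExpr (14324 kept, with at least 99.87% of each library's counts), scaled by TMM and tested with edgeR 4.0.16 (R 4.3.3), a quasi-likelihood model with 1 mean per group over all 12 libraries. A gene was called where its p, adjusted by Benjamini-Hochberg over the tested genes, was below 0.05. The script was tested on simulated data. CPM values are after TMM. TPM used the union of exons in GENCODE M21 (54409 genes). Log2 fold changes had a median SE of 0.19 in each comparison of 2 groups and 0.27 in the interaction. Motif positions and sequences come from RefSeq and GENCODE.

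Alternatives were no filter, a stricter filter (1 CPM in 6 libraries), library size alone, RLE, limma-voom (limma 3.58.1), DESeq2 1.42.0, only the groups compared, the replicate number as a block, and leaving out each library. A covariate for the 2 sets of libraries was added after the data were seen. All 10 members are named. From each list, at most 5 genes per direction with the smallest p could be named, besides 10 of interest. The 3 closest genes by correlation were taken for each member. The members, lists and tests were chosen with earlier results of these data known.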

Additional observations from a re-analysis of the deposited data

How the results depend on the processing

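In the LPS comparisons the counts of called members were the same under every alternative run to within 1.5 times, and the single member whose call was lost was Tlr9 in control mice, in 3 of 12 fits that left out 1 library. With succinate and LPS, 4 members were called lower without the filter and 1 with DESeq2, against 0, and over all genes the number called lower was 9, against 573 without the filter, 323 with DESeq2, 171 with the library set as covariate, 72 with the replicate block, 34 with limma-voom, 30 with the stricter filter and 0 with library size alone or the 2 groups alone. Leaving out 1 library gave 0 to 181. The cause was not tested. The number called higher was 0, against 121 without the filter, 23 with DESeq2, 19 with the covariate and 5 with the block. Without the filter 34 genes were called higher and 38 lower for succinate without LPS, and 22 and 49 for the interaction.

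The replicate numbers are not stated to pair the libraries. Deviations of same-numbered libraries had correlations from -0.129 to 0.377, mostly above 0 though not all above 0.1. Those of replicate 3 were all above 0 (0.093 to 0.377), and different-numbered libraries ran from -0.325 to 0.29. With the number as a block 3 members rose and 4 fell with LPS in control mice, and 2 and 4 in succinate mice. In the other comparisons 0 were called, as without it.

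Signs changed only for values that were not called. Tlr4 with LPS in succinate mice was 0.119 and Tlr9 in the interaction 0.0141 with the library set as covariate, and Tlr9 for succinate without LPS was 0.0262 with library size alone. Leaving out 1 library gave ranges that crossed 0 for Tlr4 (-0.374 to 0.0048) and Tlr6 (-0.125 to 0.263) with LPS in control mice and Tlr4 in succinate mice (-0.115 to 0.023). For succinate without LPS these were Tlr4 (-0.024 to 0.26), Tlr8 (-0.528 to 0.131) and Tlr9 (-0.23 to 0.206), and with LPS Tlr8 (-0.127 to 0.329) and Tlr9 (-0.44 to 0.0065). In the interaction they were Tlr1 (-0.499 to 0.133), Tlr2 (-0.246 to 0.097), Tlr4 (-0.036 to 0.348), Tlr7 (-0.081 to 0.197), Tlr8 (-0.0396 to 0.653), Tlr9 (-0.507 to 0.022) and Tlr13 (-0.313 to 0.128). TPM with the longest transcript exchanged only neighbours in the order whose ranges overlapped. Tlr8, with 15 to 31 counts in each LPS library, had the largest SE of the members in each comparison except succinate without LPS, where Tlr1 had it.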
